A study of Caenorhabditis elegans with 2 samples.

Results

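The lin-14 gene (WBGene00003003) was examined with 5 kb either side of it, as 1 of 19973 nuclear protein-coding genes, for regions where the transcription factor PHA-4 was found by ChIP-seq. It lies on the plus strand of chromosome X, from 11465560 to 11485871 on build ce11 (WBcel235), a span of 20.3 kb. A region was counted at lin-14 where its summit, the base of highest signal, fell in that window. The window held 13 of the 7847 peaks of the deposited optimal list, 23 of the 30000 regions of the pooled list, 28 of the 30000 regions of replicate 1 and 26 of the 30000 of replicate 2. The gene was chosen by its number of optimal peaks, a measured value, so the counts and heights below describe it and no test was made on them.

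All samples were whole Caenorhabditis elegans of strain OP37 at the L3 larval stage, of mixed sex. The strain carries the unc-119(ed3) mutation and the insertion wgIs37, and the labels name the target both as pha-4 and as eGFP-pha-4. They formed 1 group, from 2 biological replicates, and nothing was compared with it. Each replicate list was derived from its own alignment and from 1 further file common to both, which the manifests do not describe; the labels name a possible control experiment. No label states what drives the insertion or whether the strain keeps its own pha-4, and whole animals do not show which cells a peak comes from. Sequencing depth is unknown here, so no value carries a counting error on reads.

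lin-14 is one of the founding genes of the heterochronic pathway, which sets the order of larval cell fates. It encodes a nuclear DNA-binding protein that holds cells in the programme of the first larval stage, and the lin-4 microRNA pairs with its 3' untranslated region and lowers the protein before later stages begin. PHA-4 is the worm FoxA factor, which specifies the pharynx and is also active in the gut. The annotation gives lin-14 a pair of transcripts with their own 5' ends. The longer, T25C12.1a.1, starts at 11465560 and has 12 exons. The shorter, T25C12.1b.1, starts 14801 bp further on, at 11480361, inside what is intron 3 of the longer one, and has 10 exons. Exons of either transcript make up 18.04% of the span and introns 81.96%.

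The sequences under the highest lin-14 peaks are shown first, because the peaks differ in which motif lies near the summit. These 6 peaks are those at lin-14 whose height exceeded the median of the optimal list. Each sequence is the 101 bases centred on the summit, from RefSeq's WBcel235 genome, plus strand, 5' to 3', which is also the direction of lin-14. Capitals mark matches to the FoxA consensus, read as T, A or G, T, T, G or T, A or G, C or T, and matches to the GA repeat GAGAG. Both were searched on either strand, so a minus-strand GA repeat reads CTCTC.
Summit 176 bp before the first 5' end, chrX:11465334-11465434: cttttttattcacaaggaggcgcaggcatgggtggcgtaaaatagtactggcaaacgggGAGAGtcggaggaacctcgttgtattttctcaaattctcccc
Summit at +1071, intron 1, chrX:11466581-11466681: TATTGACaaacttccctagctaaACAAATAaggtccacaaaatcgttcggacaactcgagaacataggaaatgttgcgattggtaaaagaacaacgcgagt
Summit at +6086, intron 3, chrX:11471596-11471696: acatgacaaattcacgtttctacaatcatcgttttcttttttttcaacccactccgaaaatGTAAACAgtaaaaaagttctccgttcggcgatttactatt
Summit at +12429, intron 3, chrX:11477939-11478039: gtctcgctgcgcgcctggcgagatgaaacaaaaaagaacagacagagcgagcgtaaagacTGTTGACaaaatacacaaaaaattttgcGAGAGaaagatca
Summit at +13469, intron 3, chrX:11478979-11479079: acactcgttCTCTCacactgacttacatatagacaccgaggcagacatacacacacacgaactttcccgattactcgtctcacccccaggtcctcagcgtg
Summit at +17210, intron 6, chrX:11482720-11482820: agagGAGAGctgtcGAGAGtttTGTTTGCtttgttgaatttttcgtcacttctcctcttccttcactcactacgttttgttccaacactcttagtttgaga

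The highest peak at lin-14 stood deep in intron 3, 6086 bp downstream of the first 5' end. Its summit was at 11471646 and its height, the authors' own peak value, was 363, rank 93 of 7847 in the optimal list. Its height was 153 in replicate 1, rank 47 of that replicate's list, and 212 in replicate 2, rank 147. Because the replicate lists are on different scales, each height was divided by the median height of that replicate's regions at optimal peaks, and this value is called relative signal. The relative signal was 5.37 in replicate 1 and 3.68 in replicate 2, or 4.53 ± 1.19 (SD, n = 2). The sequence above holds 1 FoxA match, the minus-strand site TGTTTAC, with its middle 14 bp from the summit.

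The next highest stood in intron 6, 17210 bp downstream of the first 5' end and 2409 bp downstream of the second. Its height was 293, rank 224. The relative signal was 4.01 in replicate 1 and 3.15 in replicate 2, or 3.58 ± 0.61 (SD, n = 2), and the replicate ranks were 164 and 269. The replicates put these peaks in the same order, and each of their 4 values lay above every other lin-14 value. Together they made up 40.7% of the summed height of the 13 peaks. Within replicates the pair stood at 5.37 against 4.01 in replicate 1 and 3.68 against 3.15 in replicate 2. The difference in means, 4.53 against 3.58, was smaller than the SD of the higher peak, 1.19, but that SD does not use this pairing. With 2 replicates the difference was not tested.

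**Figure D1:**
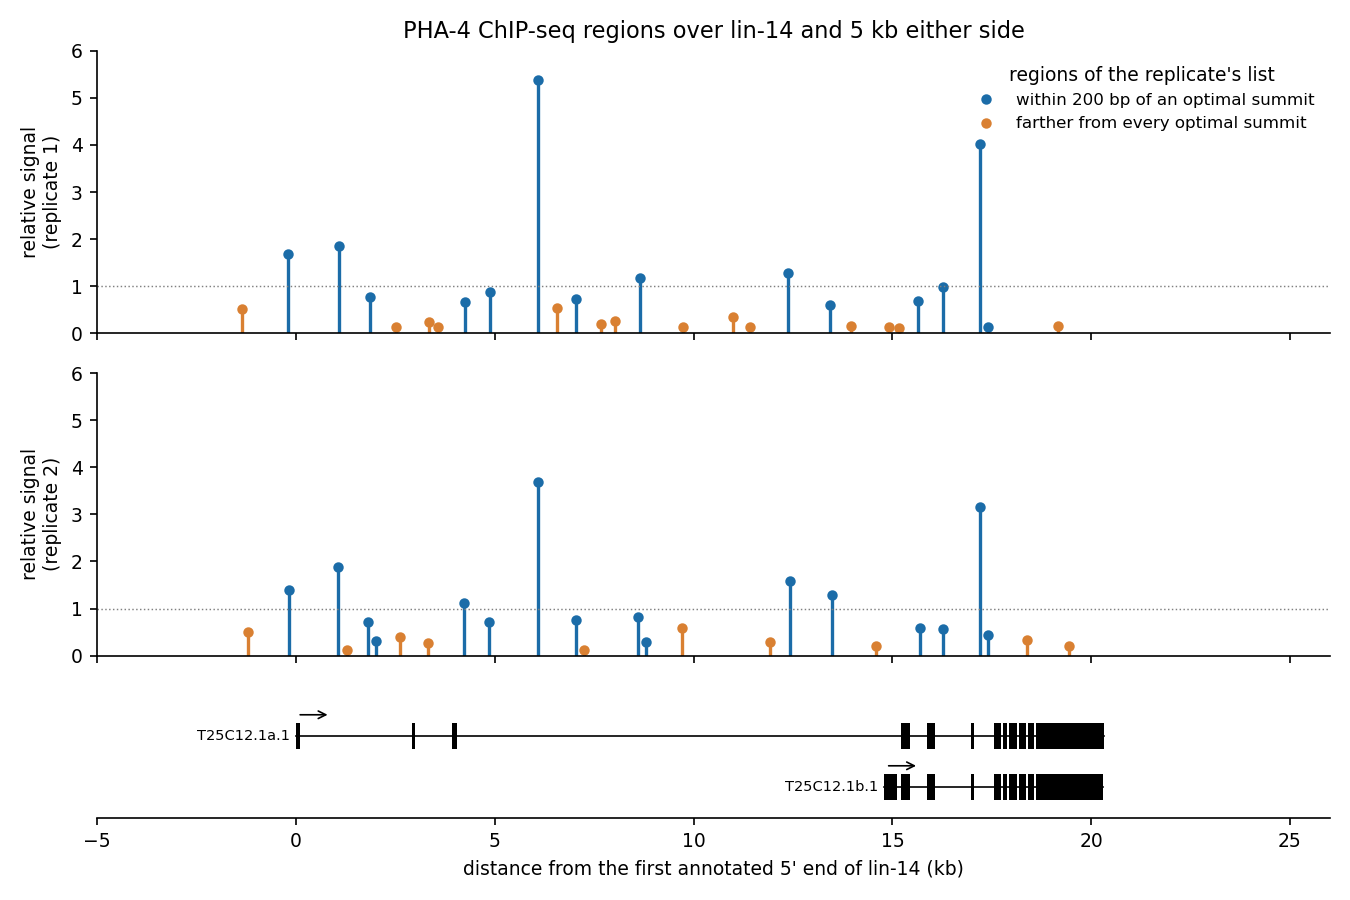
Relative signal (height over the median that the same replicate gave at optimal peaks) of every region in the 2 replicate lists against the distance from the first annotated 5' end of lin-14 in kb, with the exons of both transcripts below and a dotted line at 1. Blue regions lie within 200 bp of an optimal summit and orange ones do not; the stems at 6086 and 17210 bp stand above all others in both replicates.

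Near the first 5' end there were 3 optimal peaks. The promoter peak had its summit at 11465384, 176 bp upstream, with a height of 129 and rank 2024. Its relative signal was 1.69 in replicate 1 and 1.397 in replicate 2, or 1.54 ± 0.21 (SD, n = 2). It was the single optimal peak in the 2 flanks. The same summit lay 79 bp upstream of the 5' end of T25C12.8, a non-coding RNA gene on the minus strand, and 290 bp downstream of that of T25C12.9, one on the plus strand, so the promoter peak cannot be given to lin-14 alone.

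Intron 1 held the third highest peak and a lower one. The third highest, 1071 bp downstream of the 5' end, had a height of 160 and rank 1335. Its relative signal was 1.86 in replicate 1 and 1.89 in replicate 2, or 1.88 ± 0.02 (SD, n = 2). By the ratio of the replicates this was the closest match among the 13. The lower one, at 1849 bp, had a height of 68.5 and a relative signal of 0.741 ± 0.049 (SD, n = 2). Its summit fell inside T25C12.7, a minus-strand non-coding RNA gene within the intron, 121 bp from that gene's 5' end.

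Intron 3 of the longer transcript, 11174 bp long and 55.01% of the span, held 7 of the 12 summits inside the gene. Besides the highest peak these stood at 4267, 4865, 7046, 8655, 12429 and 13469 bp from the first 5' end. Their heights ran from 63.9 at 7046 bp to 118 at 12429 bp. The peak at 12429 bp had a relative signal of 1.28 in replicate 1 and 1.58 in replicate 2, or 1.43 ± 0.21 (SD, n = 2), overlapping in range with the promoter peak.

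The peak at 13469 bp differed most between replicates by their ratio. Its relative signal was 0.593 in replicate 1, rank 7015, and 1.29 in replicate 2, rank 2683, a 2.18-fold difference in favour of replicate 2, giving 0.943 ± 0.495 (SD, n = 2). The peak at 16269 bp in intron 5 differed the other way, with 0.980 in replicate 1 and 0.564 in replicate 2. Over the 13 peaks the coefficient of variation between replicates ran from 1.24% to 52.5% with a median of 14.7%, beside a median of 19.4% over 7694 optimal peaks matched in both replicates. Relative signal was higher in replicate 1 at 8 of the 13 and in replicate 2 at 5. Across the 13 peaks the replicates' values had a Spearman's rho of 0.654, a description over sites that share both libraries.

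**Figure D2:**
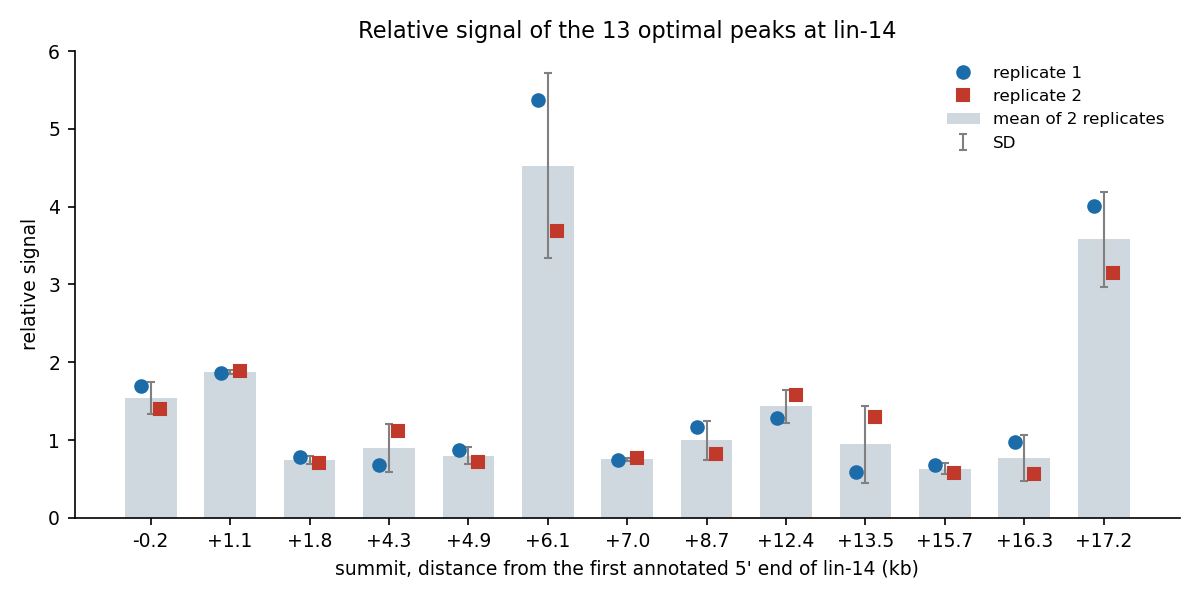
Relative signal of the 13 optimal peaks at lin-14, ordered along the gene by the distance of the summit from the first 5' end in kb. Bars are means of 2 replicates, whiskers are SD, and points are the replicates; the peaks at 6086 and 17210 bp have means of 4.53 and 3.58, and the other 11 lie between 0.630 and 1.88.

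No optimal summit lay at the second 5' end. The nearest stood 1332 bp upstream of it, the peak at 13469 bp, and 901 bp downstream, the peak at 15702 bp in intron 4. The latter was the lowest of the 13, with a height of 42.5 and rank 7709, and was the one whose q-value, given as −log10, lay below the ceiling of 4.15 that the other 12 share with most of the list. In the pooled list the nearest region stood 224 bp upstream of the second 5' end, with a height of 11.4 and rank 22616 of 30000. Replicate 2 had a region 214 bp upstream at rank 19156. Replicate 1 had one 121 bp downstream, inside the first exon of the shorter transcript, at rank 22794.

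All 12 summits inside the gene lay in introns of the longer transcript and none in an exon of either. Introns make up 81.96% of the span, so most summits would lie there by length alone, and a preference was not tested. Introns 1, 3, 4, 5 and 6 held them, while intron 2, of 913 bp, and the 5 introns from 7 to 11, each of 44 to 51 bp, held none. The last optimal summit lay in intron 6, and no optimal summit was found over the last exons, the 3' untranslated region or the 5 kb beyond. That downstream flank holds spp-9 and spp-21, genes of saposin-like proteins. The nearest optimal summits outside the window were 18.5 kb upstream of the gene and 29.7 kb downstream of it.

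The spacing of the peaks was close. Gaps between neighbouring summits ran from 567 to 3774 bp with a median of 1130.5 bp, against a median gap of 4069 bp between optimal summits along chromosome X and 4831 bp along all chromosomes. The gene held 0.591 summits per kb, against 0.0946 per kb over chromosome X. Because lin-14 was chosen by its count, a high density and short gaps follow from that choice. Of the genes of similar length with the most summits, vhp-1 held 0.570 per kb and eat-17 0.510. ell-1 held 0.471, daf-5 0.419 and lit-1 0.402. Optimal regions covered 3760 bp, or 18.5% of the span.

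The heights of the peaks lay near those of the whole list. The median height of the 13 peaks was 81.9, beside 84.7 over all 7847 optimal peaks and 76.7 over the 1676 on chromosome X. The 12 inside the gene span had a median of 76.9, beside 79.01 over 353 peaks inside other genes of similar length. Of the 13, 6 were above the median of the list and 2 were in its top 10%. The quartiles were 66.7 and 129 at lin-14, and 58.2 and 131 over all optimal peaks.

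Both replicates placed a region at every optimal lin-14 summit, as they did at nearly every optimal peak. Within 200 bp, 7776 of all 7847 optimal peaks had a match in replicate 1 and 7765 in replicate 2. All 13 at lin-14 had a match within 100 bp in each replicate, the largest shift being 65 bp. The pooled summit was the same base as that of replicate 2 at 6 of the 13 and as that of replicate 1 at 1. When each relaxed list was limited to its highest 7847 regions, 14 lay in the window in replicate 1 and 14 in replicate 2. Replicate 1 added 1 region farther than 200 bp from any optimal summit, at rank 7581, and replicate 2 added 1, at rank 7014.

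Below the optimal list, part of the regions were shared between replicates. Of the regions farther than 200 bp from any optimal summit, 14 in replicate 1 and 10 in replicate 2, 4 pairs lay within 200 bp of each other. The closest in relative signal stood in the upstream flank, 1358 bp before the first 5' end in replicate 1 and 1215 bp in replicate 2. Its relative signal was 0.514 in replicate 1, rank 7951, and 0.507 in replicate 2, rank 8089, and its pooled rank of 8994 left it outside the optimal list. The highest lin-14 region outside the list stood at 9721 bp in intron 3, with a pooled height of 39.2 and rank 8190. It was uneven between replicates, with a relative signal of 0.131 in replicate 1, rank 22713, and 0.590 in replicate 2. Just inside the list was the peak at 15702 bp described above, at rank 7709. The optimal list is the 7847 highest regions of the pooled list, with a lowest height of 41.4, so pooled height alone separated these.

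No other protein-coding gene had as many optimal summits inside its span as lin-14. Since lin-14 was chosen by its count, a high rank on that count follows from the choice. Among 281 protein-coding genes whose span was within 25% of that of lin-14, 0.356% held at least 12 summits, and that 1 gene was lin-14. At least 1 summit was found in 42.7% of them, 161 held none, and the mean was 1.299 summits a gene. By summed height inside the span lin-14, with 1482, ranked 2 of the 281, behind vhp-1 with 1539. Among all protein-coding genes lin-14 ranked 4 by that sum. By its highest peak it ranked 2 of the 281, behind sea-2, a zinc finger gene. On chromosome X alone, 38 genes were of similar length, with a median of 1 summit and a highest count of 9 apart from lin-14.

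The genes of similar length most like lin-14 in number of summits were vhp-1 and ell-1, with 10 each. vhp-1 encodes a MAP kinase phosphatase, spans 17.6 kb on chromosome II and had a highest peak of 319 and a median height of 136. ell-1, an ELL-family gene of transcription elongation, spans 21.2 kb on chromosome IV and had a highest peak of 232 and a median of 71.8. eat-17 (a Rab GTPase-activating protein) and lit-1 (the Nemo-like kinase) held 9 each, and daf-5 (a Sno/Ski-family gene) 8. At any length fkh-7 (a forkhead gene), nhr-27 (a nuclear hormone receptor) and ajm-1 (an apical junction protein) held 11 each, with spans of 25.7, 102.8 and 30.7 kb. The summed height of fkh-7, 3231, was above that of lin-14. With each relaxed list limited to its highest 7847 regions, lin-14 held 13 in replicate 1 and 13 in replicate 2, vhp-1 8 and 10, ell-1 9 and 8, and fkh-7 11 in each.

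The count also depends on the peaks and the unit compared. With only optimal peaks above the median height, lin-14 held 5 summits, and 6 other genes of similar length held at least as many. Among all protein-coding genes lin-14 then ranked 8, tied with 5 others. With 5 kb added to both sides of every gene, vhp-1 reached 14 summits against 13 for lin-14, which ranked 4 of all protein-coding genes, tied with 1 other. The longest stretch of lin-14 free of exons, 10754 bp of intron 3, held 7 summits. Among 141 such stretches of similar length, 2 others held at least as many, in daf-12 and ell-1, the higher of them with 10. Cutting the chromosomes into 4935 consecutive windows of the length of lin-14 gave 8 windows with 12 or more summits, of which none overlaps lin-14. The highest, with 15, held cdc-48.1, mnk-1 and pro-1. The cuts divided lin-14 itself between windows. Stretches and windows were compared after the values at lin-14 had been seen.

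**Figure D3:**
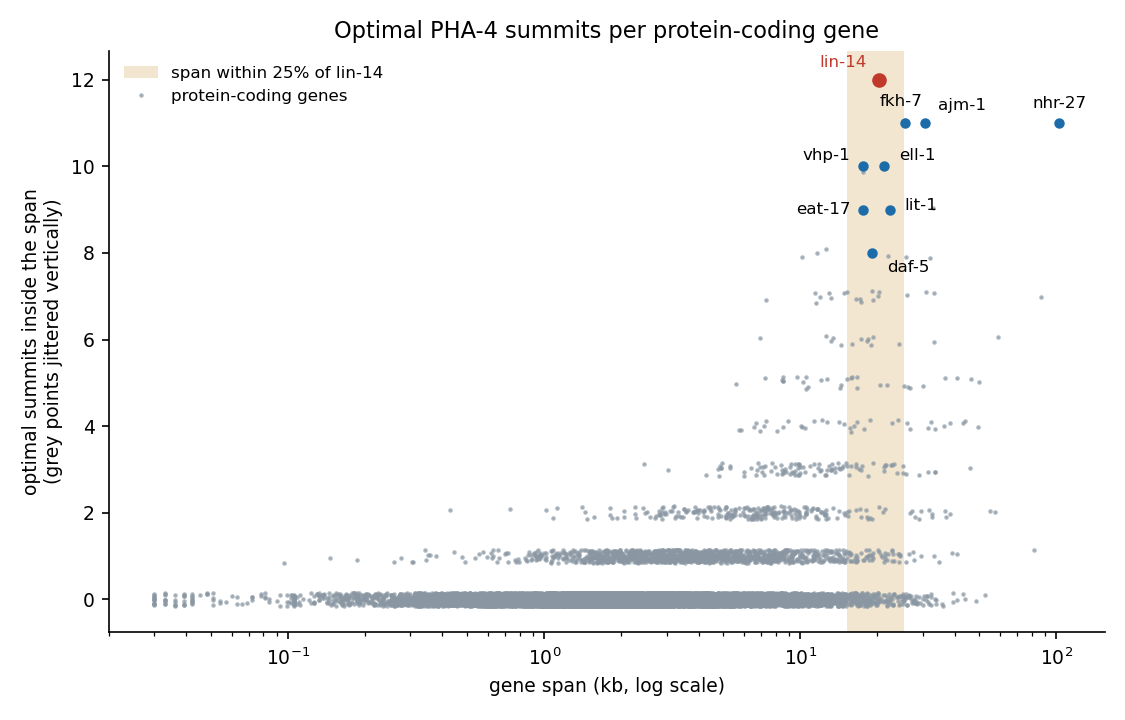
Number of optimal summits inside the span of each protein-coding gene against its span in kb (log scale), with the band within 25% of the span of lin-14 shaded. lin-14, in red, was chosen by its count, holds 12 and stands above every other gene. Labelled blue genes are those with the most summits, at similar or at any length.

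How the share of lin-14 summits with the FoxA consensus stood beside that of all optimal summits depended on the window. A match was counted where all of its bases lay within the stated distance of the summit, at lin-14 and over all optimal peaks. The consensus was found within 50 bp of 7 of the 13 lin-14 summits, or 53.8%, beside 52.4% of all 7847 optimal peaks. In 153 windows of 101 bp inside lin-14 that touched no optimal region, 24.2% held a match. These windows include exons, while the summits inside the gene all lay in introns. Within 100 bp the count at lin-14 was still 7 of 13, or 53.8%, beside 70.3% of all optimal peaks. Within 25 bp, 2 of the 13 held one, or 15.4%, beside 31.1% of all optimal peaks. By this rule the FoxA share was below that of the list at 25 and 100 bp and near it at 50 bp. The share at 25 bp is sensitive to the exact edge of the window, as the sites below show. The 2 with a whole match within 25 bp were the peaks at 6086 bp and at 12429 bp. Their sites TGTTTAC and TGTTGAC had their middles 14 and 13 bp from the summit. Matches at the peaks at 1071 and 17210 bp had their middles 24 and 25 bp from the summit. They crossed the 25 bp edge and were not counted at that width. Such matches were left out over all optimal peaks too. Among the 6 highest peaks, 4 had a match within 50 bp, and among the 7 lowest, 3.

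The GA repeat was found at more of the summits. It lay within 50 bp of 8 of the 13, or 61.5%, beside 37.8% of all optimal peaks and 20.3% of the lin-14 windows without a peak. Within 25 bp the share was 38.5%, beside 22.9% of all optimal peaks, and within 100 bp it was 84.6%, beside 53.0%. The promoter peak and the peak at 13469 bp, both printed above, had a GA repeat and no FoxA match. In all, 3 summits had both motifs, 4 the FoxA consensus alone, 5 the GA repeat alone, and the peak at 8655 bp neither. No test was made of these shares, which rest on 13 sites of 1 gene. A match describes the letters and does not show binding at that site. The A and T content of the 101 bases ran from 46.5% to 66.3% with a median of 57.4%. The median was 59.4% over all optimal peaks and 61.4% over the lin-14 windows without a peak, and chromosome X as a whole had 64.8%.

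**Figure D4:**
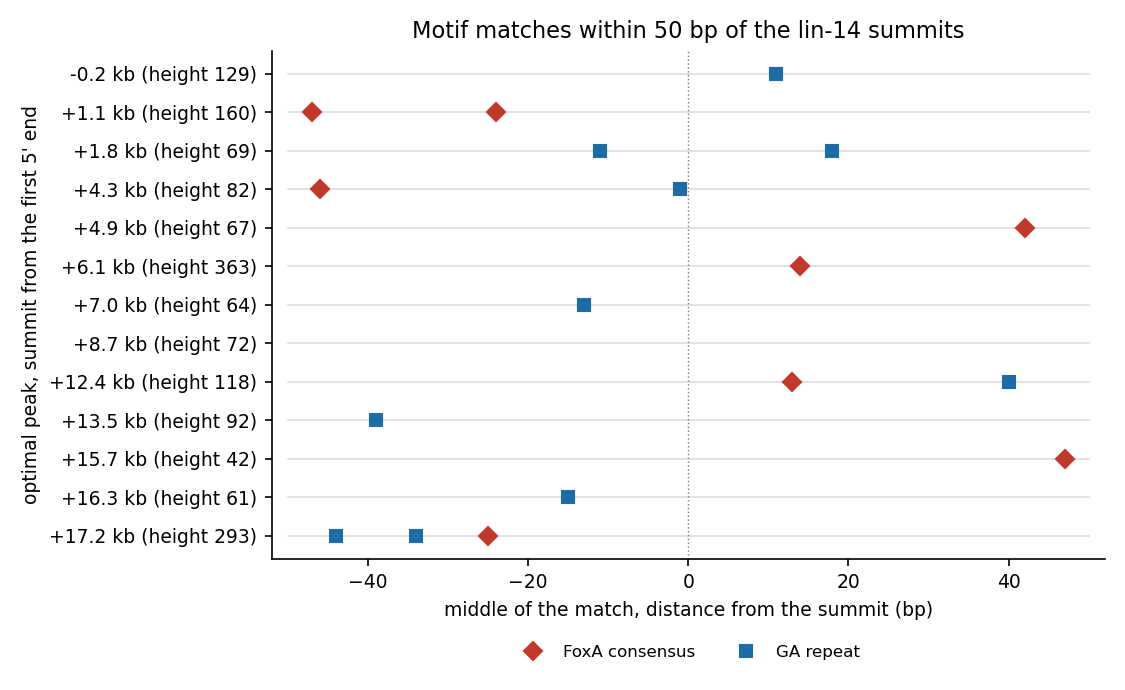
Middle of each FoxA consensus (diamonds) and GA repeat (squares) match relative to the summit in bp, 1 row for each of the 13 optimal lin-14 peaks from the first 5' end downward, with the peak height in the row label. FoxA matches appear in 7 rows and GA repeats in 8.

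No other gene of the heterochronic list held more than 7 optimal summits. The list held 24 others, 19 protein-coding and 5 microRNA genes. Of the 19, 11 had at least 1 optimal summit inside the span, beside 8.76% of all protein-coding genes, and 16 had one within 5 kb, beside 53.7%. Their median span was 6.55 kb against 2.03 kb for all protein-coding genes, and the part of gene length in these counts was not tested. Summits within 5 kb may belong to neighbouring genes.

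Several summits each lay inside 5 of the other timing genes. daf-12, the nuclear hormone receptor of the larval transitions, held 7 summits in 31.0 kb, lin-42, the Period homologue, 6 in 19.1 kb, sea-2 5 in 21.8 kb and lin-29, a zinc finger factor of the adult switch, 4 in 17.7 kb. kin-20, a casein kinase, held 3 in 9.16 kb. Single summits lay inside lin-28 and lin-66, inside alg-1 and alg-2, which encode Argonautes, and inside apl-1 and blmp-1. None lay inside lin-41, lin-46, ain-1, ain-2 or puf-9, each of which had 1 to 3 within 5 kb. No optimal summit lay within 5 kb of hbl-1, nhr-23 or nhr-25.

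The microRNA genes that act on this pathway had 1 to 4 summits within 5 kb. No share over all microRNA genes is given here, so these counts stand without a background and show no trait of these genes. let-7 had 1 inside its annotated gene and 4 within 5 kb, with a highest height of 413, rank 49. lin-4, the repressor of lin-14, had 2 within 5 kb, the higher of height 159. mir-48 and mir-241, which are neighbours, shared 1 of height 87.3, and mir-84 had 1. The highest peak near any of these genes was 574, rank 11, within 5 kb of puf-9, a Pumilio-family gene.

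**Figure D5:**
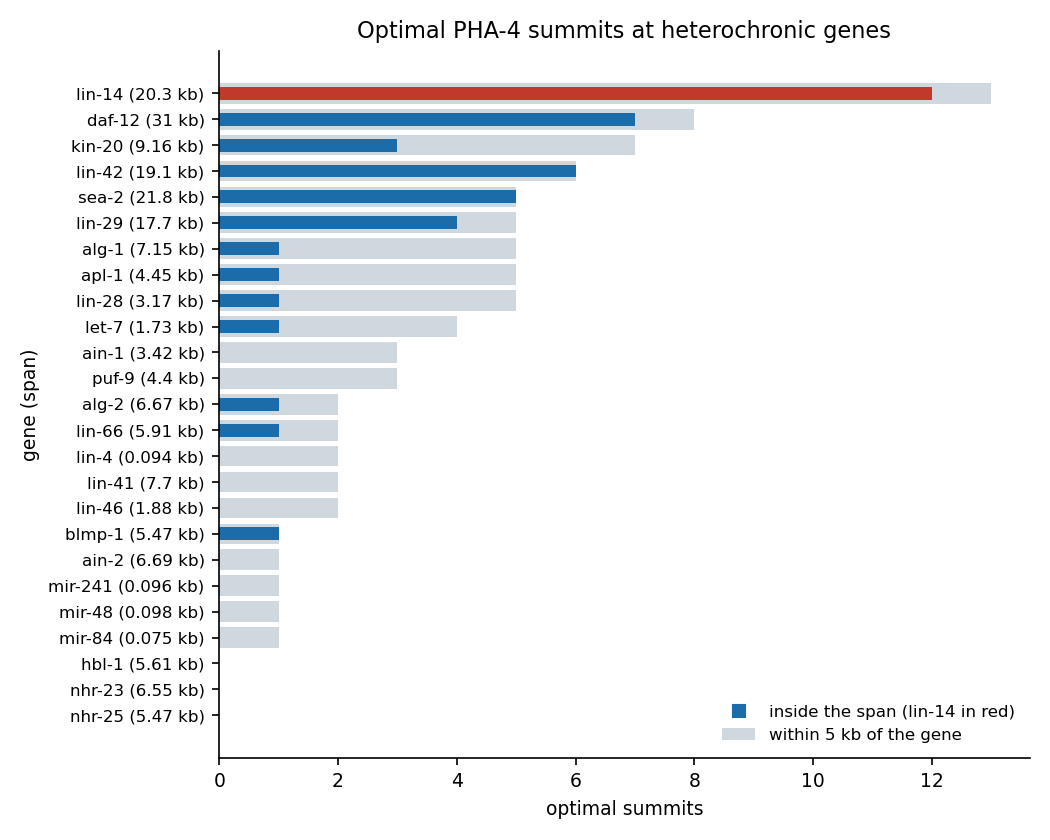
Optimal summits inside the span (blue bars) and within 5 kb (grey bars) of the 25 heterochronic genes, with the span of each in kb. lin-14, in red, has 12 and 13, and the next, daf-12, has 7 and 8.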

How the data were processed

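PHA-4 was measured by ChIP-seq in whole L3 larvae, 2 biological replicates of 1 group, numbered as in the labels. Per the manifests deposited with the samples, each replicate's relaxed list came from its own alignment and a file common to both, the pooled list from both alignments and that file, and the optimal list from the pooled and replicate lists by an irreproducible discovery rate step. No header or label names the aligner, the peak caller or the threshold. In the deposited files column 7 was read as signal, called height here, on a scale that is not stated, and column 9 as the −log10 of a q-value. Sequencing depth is unknown, so no counting error is given. All 7847 optimal peaks are identical to the 7847 highest pooled regions. Only ce11 lists were used, with Ensembl release 115 genes and RefSeq sequence on WBcel235, the same assembly.

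Replicate regions were matched to optimal summits within 200 bp, which matched 7776 optimal peaks in replicate 1 and 7765 in replicate 2. Heights were divided by the replicate's median over those, 28.4 and 57.6. Ranks are by height within a list. Genes named besides lin-14 are those overlapping the window, a heterochronic list, and the 5 genes of similar and of any length with the most summits, ties by summed height; mnk-1, pro-1 and cdc-48.1 are named for the highest window after their values were seen. lin-14, the lists and the motifs were chosen with earlier results of these data known. Counting and motif search were tested on simulated data with known answers. Python 3.11.15, NumPy 2.4.6, pandas 2.3.3 and Matplotlib 3.10.9 were used.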

Additional observations from a re-analysis of the deposited data

How the results depend on the processing

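The 12 summits inside lin-14 became 13 in the highest regions of either replicate alone, and stayed 12 with any base of the region in place of the summit. Among optimal peaks above the median height, 5 remained inside the gene and 6 in the window, and 7 of the 281 genes of similar length, lin-14 included, then held at least as many. With 5 kb added to each side of every gene, 2 did. Among all protein-coding genes lin-14 ranked 8 with the higher peaks alone and 4 with 5 kb added, in place of 1. The comparisons chosen after the data were seen gave 3 stretches without exons and 8 windows. With spans within 10% or 50%, or chromosome X genes alone, it was lin-14 alone. That outcome was fixed in advance, since no other protein-coding gene held as many optimal summits. Flanks of 2 or 10 kb gave 13 summits. The median height at lin-14 was 60.8 over the pooled list, which holds lower regions. The median relative signal of the 13 peaks, 0.943, was 0.980 to 1.11 when either replicate was left out, 0.934 with the highest overlapping region, and 3.79 after division by the median of the whole relaxed list, a smaller divisor. FoxA matches numbered 7 within 50 bp, 2 within 25 bp and 7 within 100 bp, so that their share was below that of all optimal peaks at 25 and 100 bp. The count at 25 bp leaves out 2 peaks whose matches crossed the edge of the window, with middles 24 and 25 bp from the summit. Such matches were left out over all optimal peaks too, and no share that includes them is given. GA repeats numbered 8, 5 and 11, above that share at each width. No paired analysis was possible because there is 1 group. Depth per replicate is unknown, and with 2 replicates an SD rests on a single difference.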

Other observations

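Reading the sequences under the 13 summits led to a search for a further motif, the palindrome CACGTG, an E-box form bound by several basic helix-loop-helix factors. It was found within 50 bp of 3 of the 13 lin-14 summits, or 23.1%, beside 4.51% of all 7847 optimal peaks. Of the 153 lin-14 windows without a peak, which include exons, 1 held it. The motif was chosen after these sequences were seen and it was not tested. None of the 3 peaks was among the 6 of highest signal at lin-14, their heights being 81.9, 66.7 and 60.8 from the first 5' end onward. The sequences are plus strand from RefSeq's WBcel235 genome, with CACGTG in capitals.
Summit at +4267, chrX:11469777-11469877: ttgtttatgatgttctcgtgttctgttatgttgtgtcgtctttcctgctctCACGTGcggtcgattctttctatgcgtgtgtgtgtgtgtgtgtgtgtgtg
Summit at +4865, chrX:11470375-11470475: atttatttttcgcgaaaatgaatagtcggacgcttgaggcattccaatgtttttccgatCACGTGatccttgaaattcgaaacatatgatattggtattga
Summit at +16269, chrX:11481779-11481879: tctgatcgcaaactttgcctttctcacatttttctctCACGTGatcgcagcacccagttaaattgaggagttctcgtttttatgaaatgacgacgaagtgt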
